A study of Mus musculus with 9 samples.

Results

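The 8 genes described here encode the surface molecules with which leukocytes catch, roll on, stick to and cross the vessel wall. They are the endothelial selectins Selp and Sele, the selectin ligand Selplg, the immunoglobulin-type integrin receptors Vcam1, Icam1 and Icam2, and the junctional immunoglobulin-type molecules Pecam1 and F11r. They were taken by name from the 21989 rows of the deposited expression table, and all 8 were found. The study asked how an oral preparation called ZCL in the labels, from the plant Ziziphora clinopodioides named in the series title, acts on atherosclerosis in mice. Of 120 mice in 6 groups of 20, RNA sequencing of the aortic arch, the curved first stretch of the aorta and a common site of plaque, is analysed here for 3 groups of 3 libraries. The labels do not say whether the 3 libraries of a group come from separate mice, so p-values measure the spread between these libraries, which may be technical.

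The high dose group consisted of ApoE-/- mice on a high-fat diet that were given ZCL by gavage at 5.12 g/kg/day for 15 weeks. The model group consisted of ApoE-/- mice on the same diet for 15 weeks without a named treatment. The control group consisted of C57BL/6J mice on a standard diet, so genotype and diet differ together between the controls and the other groups and cannot be told apart. Whether the model and control mice received a vehicle by gavage is not given in the labels, nor is the age of the mice. All 9 libraries carry the same batch label. Libraries are named by group and number, and the numbers do not pair mice across groups.

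In the leukocyte adhesion cascade, P-selectin and E-selectin on activated endothelium bind sugar-decorated ligands such as PSGL-1 on leukocytes and slow them to a roll. Chemokines then activate leukocyte integrins, which bind VCAM-1 and the ICAMs and bring the cell to a stop, and PECAM-1 and JAM-A at endothelial junctions take part in the passage through the wall. In the artery, this cascade is best known for bringing monocytes into the intima in early atherosclerosis, and nuclear factor kappa B (NF-kB) is a well-known activator of Sele, Vcam1 and Icam1 transcription.

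On the GRCm38 genome, in the GENCODE M21 annotation, Selp lies on chromosome 1 from 164115264 to 164150026 and Sele just before it from 164048234 to 164057677, both on the plus strand. F11r lies farther along chromosome 1, from 171437535 to 171464603 on the plus strand. Icam1 lies on chromosome 9 from 21015985 to 21028817 on the plus strand. Icam2 and Pecam1 share chromosome 11 on the minus strand, from 106377656 to 106388075 and from 106654217 to 106750628. Selplg lies on chromosome 5 from 113818536 to 113832644 and Vcam1 on chromosome 3 from 116109949 to 116129688, both on the minus strand. Antisense genes overlap Vcam1 (Gm43109), Icam1 (Gm47079) and Selp (Gm16587). The sources used here do not say whether fragments were counted by strand, so fragments of these genes and of their antisense partners cannot be told apart.

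The promoters of 3 of the genes are printed because Sele and Icam1 are textbook targets of NF-kB and Selp is the gene with the widest gap between model and control libraries. Each is the RefSeq sequence of GRCm38.p6 on the plus strand, 300 bases long and running from before to just after the RefSeq start of the gene, at chr1:164047984-164048283 for Sele, chr9:21015690-21015989 for Icam1 and chr1:164115014-164115313 for Selp. Capitals mark matches to TGANTCA, a form of the site of the transcription factor AP-1. They also mark GGANNTTCC (a form of the NF-kB site), TGACATCA (an element known from the human E-selectin promoter) and the TATA box form TATAA.
Sele: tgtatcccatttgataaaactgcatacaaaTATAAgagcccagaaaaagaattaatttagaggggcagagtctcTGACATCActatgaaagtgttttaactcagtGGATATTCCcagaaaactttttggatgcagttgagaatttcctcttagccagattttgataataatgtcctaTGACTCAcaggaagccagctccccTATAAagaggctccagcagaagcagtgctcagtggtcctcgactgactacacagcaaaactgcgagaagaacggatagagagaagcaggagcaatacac
Icam1: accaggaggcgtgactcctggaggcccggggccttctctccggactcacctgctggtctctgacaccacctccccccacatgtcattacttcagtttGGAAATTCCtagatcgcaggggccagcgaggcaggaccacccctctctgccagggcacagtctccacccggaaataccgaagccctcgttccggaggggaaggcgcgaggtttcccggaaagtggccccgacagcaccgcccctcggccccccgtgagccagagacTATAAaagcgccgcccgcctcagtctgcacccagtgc
Selp: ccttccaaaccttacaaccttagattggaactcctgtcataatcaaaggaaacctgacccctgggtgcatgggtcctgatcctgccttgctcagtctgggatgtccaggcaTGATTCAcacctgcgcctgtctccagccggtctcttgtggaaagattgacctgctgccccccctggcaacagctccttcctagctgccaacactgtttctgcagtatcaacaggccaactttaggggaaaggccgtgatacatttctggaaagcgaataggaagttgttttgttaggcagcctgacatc

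The motifs were searched on both strands, and no marked match overlaps another motif in these windows. Sele held GGATATTCC at -145 to -137, TGACATCA at -176 to -169, TGACTCA at -73 to -67 and TATAA at -220 to -216 and -49 to -45, counted from the RefSeq start. Icam1 held GGAAATTCC at -153 to -145, and TATAA at 14 to 18. The GENCODE start of Icam1, at 21015985, lies downstream of the RefSeq start and of this TATAA. Selp held TGATTCA at -139 to -133 and none of the other letters searched. Of 32851 RefSeq promoters of the same length, 4.26% held GGANNTTCC, 3.62% TGACATCA, 24.87% TATAA and 7.81% TGANTCA. A further pattern, GGGNNTTCC, was in 5.82% of all promoters and in none of the promoters examined here. F11r, the only other gene of the set with a promoter in the table, held TGAGTCA at -109 to -103. Vcam1, Icam2, Selplg and Pecam1 had no entry. A match of letters is a description of the sequence and no evidence that a factor binds there.

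Values are the authors' FPKM, fragments scaled to transcript length and library depth, which allow levels of different genes to be set side by side per length. Relative depths were read from the commonest ratio between libraries among genes under 0.3 FPKM, at 56.3% to 100.0% of the deepest library, model 1. At these depths, the values of all 12895 genes tested were whole multiples of a step to within 0.005 fragments. Apoe checked the labels, at 30.3, 93.7 and 25.4 FPKM in high dose 1, 2 and 3 and 18.9, 33.4 and 24.5 FPKM in model 1, 2 and 3, against 829, 1006 and 339.9 FPKM in control 1, 2 and 3. Even so, its log2 difference of model against control, -4.67 ± 0.56 (SE), had a limma adjusted p of 0.216. The arches also carried RNA of neighbouring tissue. The heart muscle gene Myh6 was at 633.8 and 1554 FPKM in high dose 2 and 3 and 2729 and 806.7 FPKM in control 1 and 2, and at 1.85 to 6.34 FPKM in the other libraries. Airway markers summed to 28059 FPKM in high dose 2 and 9367 FPKM in control 2. Skeletal muscle markers summed to 7645 FPKM in high dose 2 and 14.1 to 414.8 FPKM in the other libraries. Brown fat markers summed to 13106 FPKM in control 3 and 1070 to 4690 FPKM in the other libraries. Control 3 was also the lowest library for Selp, Sele, Selplg, Vcam1 and Icam1, and the part of brown fat RNA in this was not tested. Adrenal and nerve markers summed to 8.33 to 2461 FPKM in high dose, 0.854 to 3.72 FPKM in model and 68.0 to 584.0 FPKM in control libraries. All 8 of them were lower in every model library than in every control, beside 9.06% of all genes. Every one of 8 smooth muscle markers and 16 endothelial markers was detected in all 9 libraries, with smooth muscle sums of 488.5 to 4213 FPKM in high dose, 1835 to 4483 FPKM in model and 1707 to 3395 FPKM in control libraries.

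Differences were tested with limma on log2(FPKM + 1) in genes of at least 1 FPKM in at least 3 libraries, a scale that understates the change of low genes, with p-values adjusted over all 12895 genes by the Benjamini-Hochberg method and a threshold of 0.05. None of the 7 adhesion genes tested passed the threshold in any comparison, and none of the 12895 genes in the fit did. With no filter on low values, 1 row of the 21989, Gm17783, was called for high dose against model, for high dose against control and for both ApoE-/- groups against control. The smallest adjusted p over all genes was 0.216 for model against control, 0.0883 for high dose against model and 0.33 for high dose against control. At an unadjusted p under 0.05 the counts over all genes were 821, 1729 and 701, and limma voom on the recovered fragments called 0 genes as well. Sele reached 1 FPKM in only 2 libraries, so the fit did not test it. Single genes were also compared by exact two-sided permutation tests, which cannot go below p = 0.1 with 3 libraries against 3.

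P-selectin, stored in endothelial cells and platelets and moved to the surface on activation, was the gene of the set with the widest gap between model and control libraries. Selp was at 2.98, 4.78 and 18.4 FPKM in high dose 1, 2 and 3, 40.6, 19.1 and 8.46 FPKM in model 1, 2 and 3, and 1.94, 4.08 and 1.32 FPKM in control 1, 2 and 3. All 3 model libraries were above all 3 control libraries, while the high dose libraries overlapped both groups, with high dose 3 above model 3. Group means were 8.72 ± 8.44 FPKM in high dose, 22.7 ± 16.4 FPKM in model and 2.45 ± 1.45 FPKM in control libraries (SD, n = 3 each). The model mean was 9.29 times the control mean. On the log2 scale Selp was 2.61 ± 0.69 (SE) higher in model than in control libraries, with a limma adjusted p of 0.688 and an exact permutation p of 0.1, the smallest this design allows.

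The high dose mean of Selp was 0.384 times the model mean, a log2 difference of -1.38 ± 0.69 (SE) with a limma adjusted p of 0.399 and overlapping libraries. That difference was -0.85 without model 1, -0.91 without high dose 1 and -2.06 without high dose 3. Against control it was 3.56 times as high, at 1.23 ± 0.69 on the log2 scale with a limma adjusted p of 0.888, again with overlap. With the 6 ApoE-/- libraries as 1 group against the 3 controls, the log2 difference was 1.92 ± 0.60 (SE) and the exact permutation p was 0.0595, with 0.0119 the smallest possible. The only overlap was between high dose 1 at 2.98 FPKM and control 2 at 4.08 FPKM. With limma array weights, which down-weight libraries that vary more, the difference of Selp between model and control libraries was 2.38 and its adjusted p 0.0459, among 684 genes called at that setting. Over the 23 alternative settings its adjusted p ran from 0.0459 to 1. The values rest on 167 to 941 fragments of Selp in high dose, 437 to 2949 fragments in model and 59 to 167 fragments in control libraries.

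E-selectin, made by endothelial cells only after activation by cytokines, was low in 7 libraries and high in 2. Sele was at 0.317, 0.645 and 6.90 FPKM in high dose 1, 2 and 3, 10.85, 0.778 and 0.885 FPKM in model 1, 2 and 3, and 0.995, 0.331 and 0.0757 FPKM in control 1, 2 and 3. Model 1 and high dose 3 stood apart from the rest of their own groups, and without them every library was under 1 FPKM. Its lowest value, in control 3, rests on 4 fragments, with a 95% Poisson interval of 0.0206 to 0.194 FPKM that covers counting error only, against 932 fragments in model 1. Group means were 2.62 ± 3.71 FPKM in high dose, 4.17 ± 5.78 FPKM in model and 0.467 ± 0.475 FPKM in control libraries (SD, n = 3 each). Exact permutation p-values were 0.3 for model against control, 0.5 for high dose against model and 0.5 for high dose against control.

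Selplg encodes PSGL-1, the main P-selectin ligand on leukocytes. It was at 6.29, 3.72 and 8.73 FPKM in high dose 1, 2 and 3, 17.5, 28.7 and 7.31 FPKM in model 1, 2 and 3, and 2.59, 10.9 and 1.09 FPKM in control 1, 2 and 3. Model 1 and 2 were above every other library, while model 3 lay below high dose 3 and control 2. Group means were 6.25 ± 2.50 FPKM in high dose, 17.9 ± 10.7 FPKM in model and 4.86 ± 5.28 FPKM in control libraries (SD, n = 3 each). The log2 difference was 1.89 ± 0.67 (SE) for model against control, with a limma adjusted p of 0.713. It was -1.26 ± 0.67 (SE) for high dose against model, with a limma adjusted p of 0.419, and 0.64 ± 0.67 (SE) for high dose against control, with a limma adjusted p of 0.918.

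**Figure D1:**
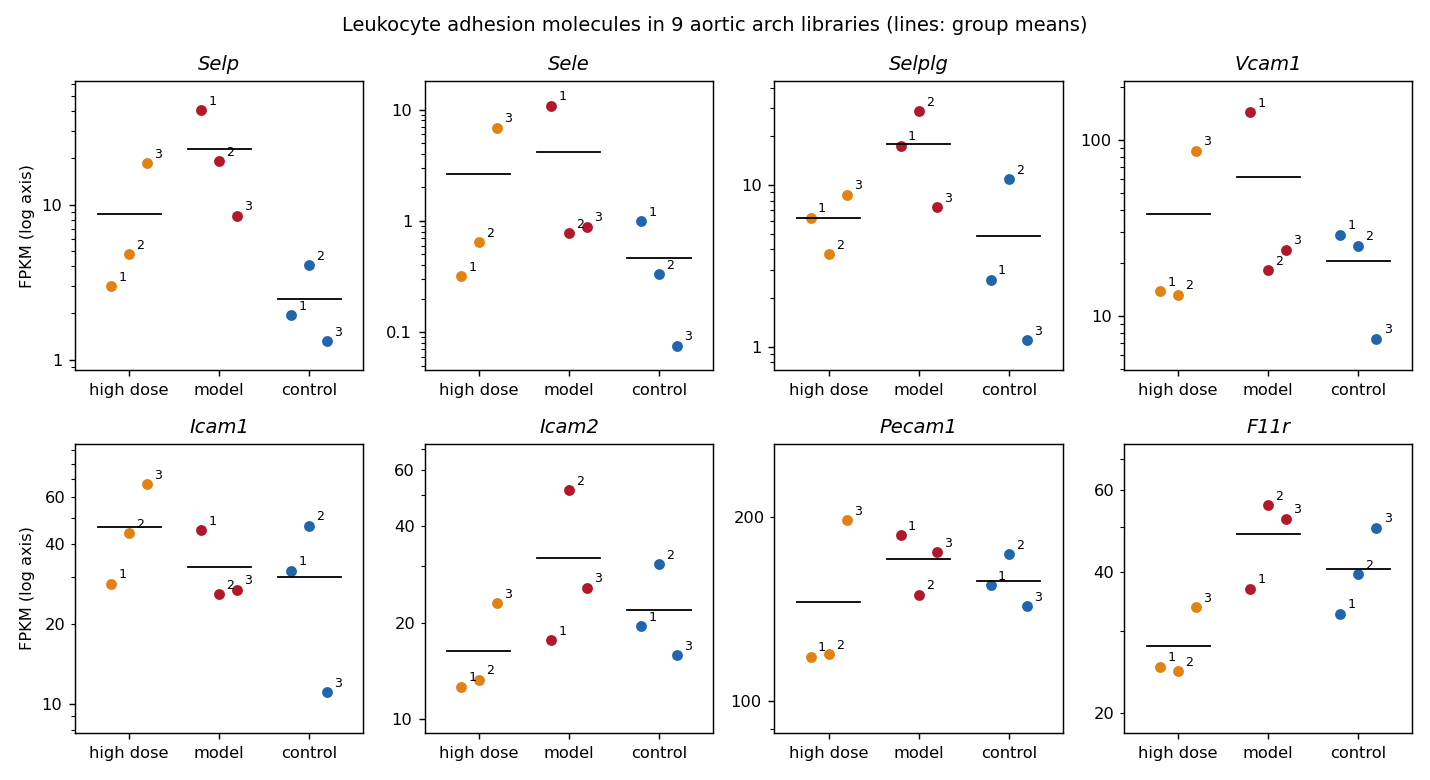
FPKM on log axes, with a scale of its own for each gene, of the 8 adhesion genes in each library; points are libraries with their numbers, horizontal lines are group means, and the groups are high dose, model and control with 3 libraries each. For Selp the 3 model points lie above the 3 control points, for F11r the 3 high dose points lie below the 3 model points, and for Sele and Vcam1 model 1 and high dose 3 stand above all other libraries.

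VCAM-1, which binds the integrin VLA-4 on monocytes and lymphocytes, had the same 2 high libraries as Sele. Vcam1 was at 13.8, 13.2 and 86.6 FPKM in high dose 1, 2 and 3, 142.7, 18.2 and 23.7 FPKM in model 1, 2 and 3, and 28.8, 25.1 and 7.43 FPKM in control 1, 2 and 3. Apart from model 1 and high dose 3, no library exceeded control 1, and the other model and high dose libraries lay within the range of the controls. Group means were 37.9 ± 42.2 FPKM in high dose, 61.5 ± 70.4 FPKM in model and 20.5 ± 11.4 FPKM in control libraries (SD, n = 3 each), so the SD of each ApoE-/- group was larger than its mean. The log2 differences were 1.13 ± 0.95 (SE) for model against control, -0.63 ± 0.95 (SE) for high dose against model and 0.50 ± 0.95 (SE) for high dose against control, with limma adjusted p-values of 0.856, 0.78 and 0.955. Without model 1 the difference of high dose against model became 0.28, and without high dose 3 it was -1.49. Without model 1 the difference of model against control was 0.22, and without high dose 3 that of high dose against control was -0.37.

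ICAM-1, the receptor of the leukocyte integrins LFA-1 and Mac-1, is present at rest and is made in larger amounts after cytokine stimulation. Icam1 was at 28.3, 43.9 and 67.0 FPKM in high dose 1, 2 and 3, 45.1, 25.9 and 27.0 FPKM in model 1, 2 and 3, and 31.7, 46.9 and 11.1 FPKM in control 1, 2 and 3. The 3 groups overlapped, with high dose 3 highest and control 3 lowest. Group means were 46.4 ± 19.5 FPKM in high dose, 32.7 ± 10.8 FPKM in model and 29.9 ± 18.0 FPKM in control libraries (SD, n = 3 each). It was the only one of the 7 tested genes with a positive log2 difference of high dose against model, 0.46 ± 0.52 (SE), with a limma adjusted p of 0.705. Against control, the log2 difference was 0.29 ± 0.52 (SE) in model and 0.75 ± 0.52 (SE) in high dose libraries, with limma adjusted p-values of 0.952 and 0.888. Icam4 and Icam5, which follow Icam1 on chromosome 9, reached at most 1.72 and 0.555 FPKM.

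ICAM-2 is carried by resting endothelium and is a further ligand of LFA-1. Icam2 was at 12.6, 13.3 and 23.0 FPKM in high dose 1, 2 and 3, 17.7, 52.0 and 25.7 FPKM in model 1, 2 and 3, and 19.5, 30.5 and 15.9 FPKM in control 1, 2 and 3. Here model 2, and not model 1, was the highest library, and high dose 1 and 2 were the lowest of the 9. The log2 difference of high dose against model was -0.83 ± 0.42 (SE), with a limma adjusted p of 0.406 and an exact permutation p of 0.2, and it was -0.42 without model 2. For model against control it was 0.43 ± 0.42 (SE) with a limma adjusted p of 0.885, and 0.011 without model 2. For high dose against control it was -0.41 ± 0.42 (SE) with a limma adjusted p of 0.918.

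PECAM-1 holds endothelial cells together at their borders and is also found on platelets and leukocytes. Pecam1 was at 118.1, 119.3 and 197.6 FPKM in high dose 1, 2 and 3, 186.7, 149.0 and 175.2 FPKM in model 1, 2 and 3, and 154.5, 173.8 and 142.8 FPKM in control 1, 2 and 3. It was the steadiest gene of the set, with a highest library 1.67 times the lowest, where the same ratio was 143 for Sele. The log2 differences were 0.12 ± 0.27 (SE) for model against control, -0.27 ± 0.27 (SE) for high dose against model and -0.15 ± 0.27 (SE) for high dose against control, with limma adjusted p-values of 0.966, 0.657 and 0.946.

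F11r encodes JAM-A, an immunoglobulin-type molecule of endothelial and epithelial tight junctions that is also carried by platelets and leukocytes. It was at 25.1, 24.5 and 33.7 FPKM in high dose 1, 2 and 3, 36.9, 55.6 and 52.1 FPKM in model 1, 2 and 3, and 32.6, 39.6 and 49.8 FPKM in control 1, 2 and 3. All 3 high dose libraries were below all 3 model libraries, and high dose 3 lay just above the lowest control. Group means were 27.8 ± 5.13 FPKM in high dose, 48.2 ± 9.93 FPKM in model and 40.7 ± 8.66 FPKM in control libraries (SD, n = 3 each). The log2 difference of high dose against model was -0.77 ± 0.25 (SE), with an unadjusted limma p of 0.0144, an adjusted p of 0.296 and an exact permutation p of 0.1. Against control it was -0.53 ± 0.25 (SE) in high dose libraries, with a limma adjusted p of 0.888, and 0.24 ± 0.25 (SE) in model libraries, with 0.898.

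Counted as a set, the log2 difference of model against control was positive for 7 of the 7 tested genes, with a median of 0.43 beside -0.01 over all genes. One of them, Selp, had groups that did not overlap, beside 16.0% of all genes, and 2 of them, Selp and Selplg, had an unadjusted p under 0.05, beside 6.37% of all genes. The log2 difference of high dose against model was negative for 6 of 7, with a median of -0.77 beside 0.00 over all genes. In that comparison only F11r had groups that did not overlap, beside 22.6% of all genes, and only F11r had an unadjusted p under 0.05, beside 13.4% of all genes. For high dose against control, 4 of 7 log2 differences were positive, with a median of 0.50. None of the 7 had groups that did not overlap, beside 8.68% of all genes, or an unadjusted p under 0.05, beside 5.44%. For both ApoE-/- groups as 1 against control, 5 of 7 log2 differences were positive. Selp alone had an unadjusted p under 0.05, beside 3.95% of all genes, and none of the 7 had groups that did not overlap, beside 1.63%. These comparisons share libraries, so their values are not independent of each other.

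**Figure D2:**
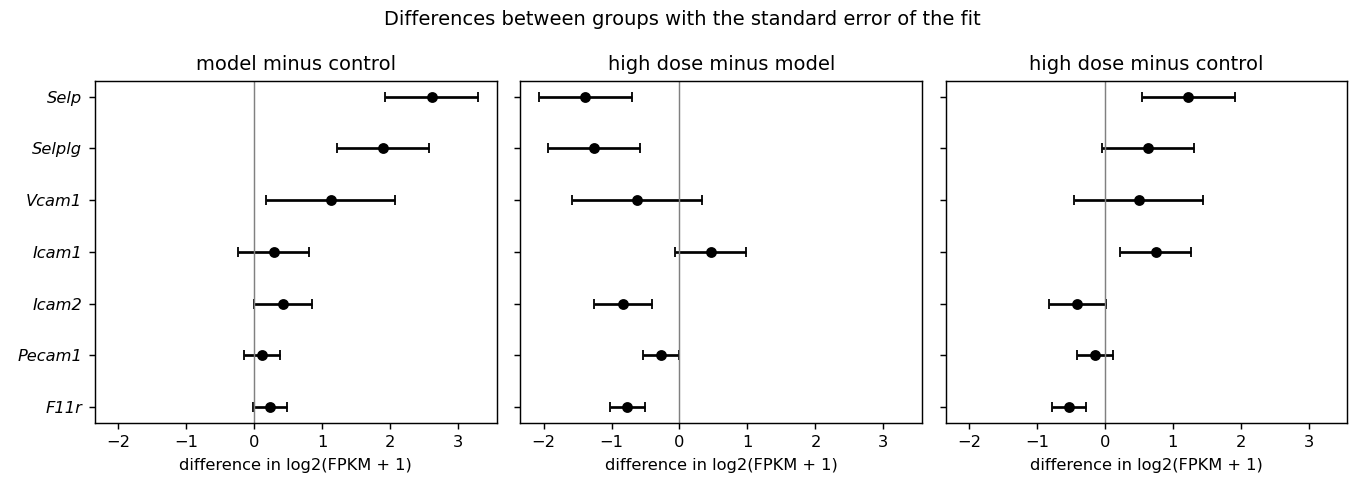
Differences in log2(FPKM + 1) of the 7 adhesion genes that were tested, with the standard error of the fit as bars, for model minus control, high dose minus model and high dose minus control. Values to the right of the vertical line are higher in the group named first; Selp at 2.61 and Selplg at 1.89 lie farthest to the right for model minus control, and none passed the adjusted threshold.

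The order of the group means per length changed little at its ends. Pecam1 was highest in all 3 groups and Sele lowest. In high dose libraries the order was Pecam1, Icam1, Vcam1, F11r, Icam2, Selp, Selplg and Sele, and the ranges of neighbours overlapped except between Pecam1 and Icam1 and between F11r and Icam2. In model libraries it was Pecam1, Vcam1, F11r, Icam1, Icam2, Selp, Selplg and Sele, with overlap of neighbours except between Pecam1 and Vcam1. In control libraries it was Pecam1, F11r, Icam1, Icam2, Vcam1, Selplg, Selp and Sele, with overlap of neighbours except between Pecam1 and F11r and between Selp and Sele.

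Selp was high in the libraries in which myeloid genes were high. Among the genes most alike to Selp of 11007 candidates, by Pearson's r of log2(FPKM + 1) over the 9 libraries, were Tyrobp (r = 0.995) and Fcgr4 (0.986), an adaptor and an Fc receptor of myeloid cells. Tyrobp was at 29.2, 34.3 and 191.3 FPKM in high dose 1, 2 and 3, 324.3, 151.2 and 67.4 FPKM in model 1, 2 and 3, and 19.9, 35.02 and 13.5 FPKM in control 1, 2 and 3. For Selplg the most alike were Dpagt1 (0.985), Gmip (0.976) and Ddx31 (0.95). Both genes of a pair are read from the same libraries, so r is given as a description.

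Sele and Vcam1 had the same 2 nearest genes, Cd276 and Esd, at 0.974 and 0.966 for Sele and 0.967 and 0.957 for Vcam1. Cd276, an immunoglobulin-type surface protein of the B7 family, was at 8.38 FPKM in high dose 3 and 13.5 FPKM in model 1 and at 1.61 to 3.78 FPKM in the other 7 libraries. Between Sele and Vcam1 themselves r was 0.952 over 9 libraries and 0.73 over the 7 libraries other than model 1 and high dose 3. Icam1 was nearest to Casp4 (0.957), an inflammatory caspase, and to Adpgk (0.946) and Plat (0.943). Pecam1 was nearest to Rnft1 (0.959), Il1r1 (0.931) and Ctbs (0.922), and Icam2 to Odf2l (0.949), Exd2 (0.94) and Gtpbp2 (0.94). F11r was nearest to Cav1 (0.964), the main caveolin of endothelial and smooth muscle cells, and to Clock (0.956) and Hspa12b (0.954). Cav1 was at 211.4, 141.8 and 255.0 FPKM in high dose 1, 2 and 3, 361.4, 529.8 and 470.9 FPKM in model 1, 2 and 3, and 242.2, 329.0 and 452.3 FPKM in control 1, 2 and 3. Again all high dose libraries were below all model libraries, as in 10.9% of all genes.

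Markers of the cells that make these molecules also differed between the libraries. In such bulk tissue, fewer cells of a type and less RNA per cell cannot be told apart. The sum of 12 leukocyte markers ran from 313.8 to 882.2 FPKM in high dose, 312.6 to 1252 FPKM in model and 94.5 to 542.8 FPKM in control libraries, with model 1 and high dose 3 highest and none of the markers at 0. The sum of 16 endothelial markers ran from 469.8 to 874.4 FPKM in high dose, 709.8 to 936.4 FPKM in model and 878.5 to 954.6 FPKM in control libraries, with high dose 1 and 2 lowest. Of 11 platelet markers, Ppbp, Gp1ba, Gp1bb and Gp6 were under 1 FPKM in every library and Gp1ba was at 0 in 7. Their sum ran from 6.45 to 26.2 FPKM in high dose, 20.9 to 33.7 FPKM in model and 12.02 to 34.0 FPKM in control libraries, and the part of platelet RNA in the level of Selp was not tested. The sum of 8 red cell markers ran from 2694 to 21261 FPKM in high dose, 21379 to 64125 FPKM in model and 8842 to 15946 FPKM in control libraries, highest in model 1 like Selp. Of the 7 red cell markers tested, 6 had all model libraries above all controls, beside 6.91% of all genes. All high dose libraries were below all model libraries in 6 of the 7, beside 10.9% of all genes. The median log2 differences of the tested red cell markers were 1.52 for model against control and -2.64 for high dose against model. The part of blood in the values of Selp and Selplg was not tested.

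With the mean log2 level of the endothelial list subtracted in each library, all 6 ApoE-/- libraries were above all 3 controls for Selp. Its values were -2.47, -1.65 and -0.62 in high dose 1, 2 and 3, 0.50, -0.79 and -1.93 in model 1, 2 and 3, and -3.38, -2.82 and -3.78 in control 1, 2 and 3. The difference between the 6 and the 3 was 2.17, with an exact permutation p of 0.0238 and a limma adjusted p of 0.55. That exact p was the only one under 0.05 among 96 such tests of the 8 genes. Most of the 96 compared 3 libraries with 3 and could not go below 0.1. Only the tests of 6 against 3 could fall under 0.05. With the leukocyte list mean subtracted instead, the model against control difference of Selp was 1.07 and its groups still did not overlap, while the median of all genes shifted by -1.55 at that setting. Its high dose against model difference was -0.85, also without overlap, while the median of all genes shifted by 0.533. Tyrobp, the gene most alike to Selp, is 1 of the 12 leukocyte markers in that mean. The difference between the 6 ApoE-/- and the 3 control libraries was then 0.65, with an exact permutation p of 0.179, and the groups overlapped, with high dose 1 at -2.26 and high dose 2 at -1.62 against -1.53, -2.59 and -1.51 in control 1, 2 and 3. For F11r, subtracting the endothelial list mean left a high dose against model difference of -0.22 with overlapping groups. Beyond these values, the part of leukocyte and endothelial RNA in the differences was not tested.

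**Figure D3:**
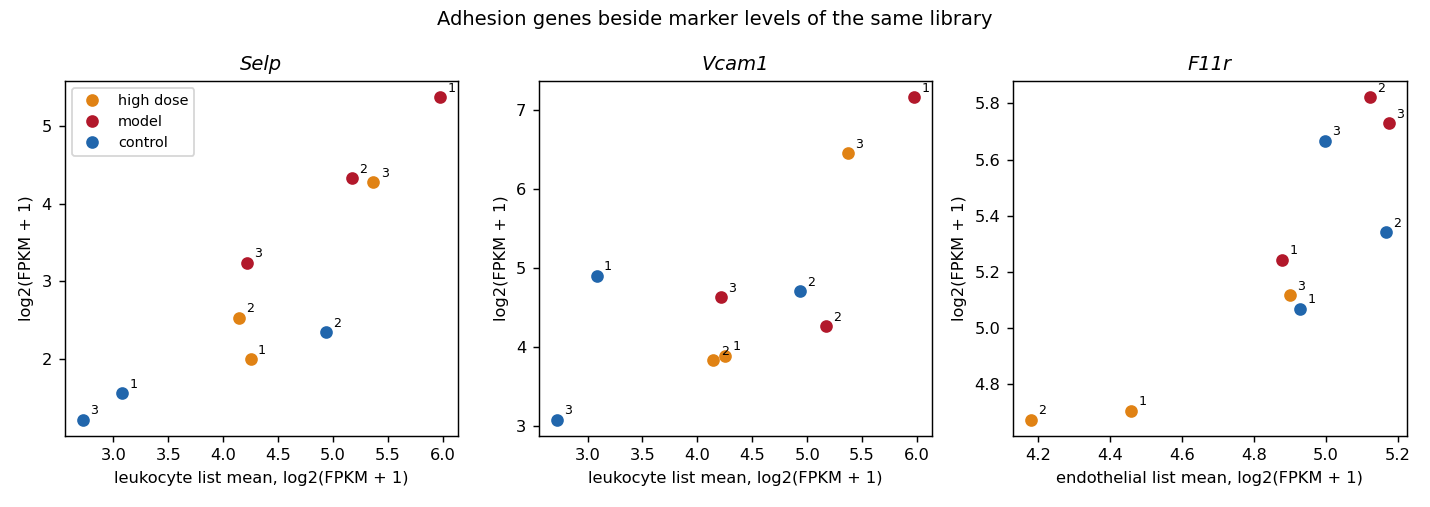
Level of Selp and Vcam1 against the mean level of 12 leukocyte markers, and of F11r against that of 16 endothelial markers, all as log2(FPKM + 1); each point is a library with its number, colored by group (high dose, model, control). Model 1 and high dose 3 hold the highest leukocyte marker means and the highest Vcam1, control 2 lies lower in Selp than model 2 and high dose 3 at a similar leukocyte mean, and high dose 1 and 2 are lowest in both the endothelial mean and F11r.

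The other genes of leukocyte adhesion came from 11 lists holding 110 gene names. The table has rows for 109 of them, the fit tested 93, and 0 of the 93 passed the threshold in any comparison. Leukocyte integrins, the partners of VCAM-1 and the ICAMs, had a median log2 difference of 0.74 for model against control, with 8 of 8 positive, and of -1.11 for high dose against model, with 0 of 8 positive. In 3 of the 8 all model libraries were above all controls, beside 6.91% of all genes. Itgam, the alpha chain of Mac-1, was at 4.14, 5.07 and 15.5 FPKM in high dose 1, 2 and 3, 18.8, 79.1 and 13.5 FPKM in model 1, 2 and 3, and 1.91, 4.87 and 3.04 FPKM in control 1, 2 and 3, a model against control difference of 2.79 ± 0.68 (SE) on the log2 scale. The others were Itgb2, the shared beta chain of LFA-1 and Mac-1, at 2.73 ± 0.78 (SE) and Itgax, also called CD11c, at 2.62 ± 0.92 (SE), with limma adjusted p-values of 0.688, 0.688 and 0.713 for Itgam, Itgb2 and Itgax. Itgb2 is also 1 of the 12 leukocyte markers.

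Cytokines and chemokines that switch on or guide adhesion had a median log2 difference of 0.87 for model against control, with 8 of 8 tested positive. For high dose against model the median was 0.40, with 5 of 8 positive. Tnf was at or near 0 in all 9 libraries, reaching at most 0.02 FPKM. Cxcl10, a chemokine of interferon responses, was at 16.4, 10.6 and 10.9 FPKM in high dose 1, 2 and 3, 5.12, 2.66 and 2.66 FPKM in model 1, 2 and 3, and 2.04, 2.06 and 1.19 FPKM in control 1, 2 and 3. The 3 groups did not overlap. Over all genes, 22.6% had no overlap between high dose and model libraries and 16.0% none between model and control libraries. The latter property is also how Cxcl10 was named. For Cxcl10 the log2 difference of high dose against model was 1.63 ± 0.29 (SE) with a limma adjusted p of 0.159. Il1b, an inducer of E-selectin, was at 1.55 to 7.40 FPKM in high dose, 2.30 to 3.11 FPKM in model and 0.407 to 1.65 FPKM in control libraries. Cx3cl1, a membrane-bound chemokine, was at 42.3 FPKM in model 1 and at 4.70 to 13.8 FPKM in the other 8 libraries. Il6, chosen after its values were seen, was at 19.3 FPKM in high dose 3 and at 0.067 to 2.03 FPKM elsewhere. In model 1, the highest library for Sele and Vcam1, it was at 2.03 FPKM.

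Genes of NF-kB signalling had a median log2 difference of 0.24 for model against control, with 11 of 14 positive, and of -0.07 for high dose against model, with 5 of 14 positive. Tnfrsf1b, a receptor of tumor necrosis factor, was at 5.20 to 17.7 FPKM in high dose, 7.93 to 26.4 FPKM in model and 3.31 to 6.37 FPKM in control libraries. Nfkbia, the NF-kB inhibitor that is itself an NF-kB target, was chosen after its values were seen. It was at 106.0, 116.7 and 157.4 FPKM in high dose 1, 2 and 3, 48.7, 56.2 and 50.7 FPKM in model 1, 2 and 3, and 55.7, 95.8 and 52.4 FPKM in control 1, 2 and 3, with every high dose library above every other library. Over all genes, high dose libraries did not overlap model libraries in 22.6% and control libraries in 8.68%. For Nfkbia the log2 difference of high dose against model was 1.26 ± 0.28 (SE), with a limma adjusted p of 0.189.

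Regulators that respond to blood flow had a median log2 difference of -0.06 for model against control and -0.08 for high dose against model. Klf4, a flow-induced transcription factor known to restrain Vcam1 in endothelial cells, was at 13.8, 20.9 and 28.4 FPKM in high dose 1, 2 and 3, 71.7, 120.1 and 93.9 FPKM in model 1, 2 and 3, and 48.3, 49.4 and 49.3 FPKM in control 1, 2 and 3. The 3 groups did not overlap, with high dose lowest and model highest. The log2 difference of high dose against model was -2.15 ± 0.29 (SE) with a limma adjusted p of 0.131, and that of model against control 0.91 ± 0.29 (SE) with 0.708. Gata2, an endothelial and blood cell transcription factor, was at 38.8, 8.17 and 13.0 FPKM in high dose 1, 2 and 3. It was at 10.9 to 11.9 FPKM in model libraries and at 13.5, 31.3 and 13.3 FPKM in control 1, 2 and 3. High dose 1 and control 2, its highest libraries, also had the highest adrenal and nerve marker sums, 2461 and 584.0 FPKM. The part of that RNA in the level of Gata2 was not tested.

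Selectin ligands need sugars and sulfate, and their scaffold and glycosylation lists had medians of 0.16 and 0.18 for model against control and -0.22 and -0.12 for high dose against model. C1galt1, which builds the core of the O-linked sugars of PSGL-1, was at 3.00, 1.87 and 3.19 FPKM in high dose 1, 2 and 3, 7.24, 7.26 and 7.10 FPKM in model 1, 2 and 3, and 4.13, 5.37 and 5.29 FPKM in control 1, 2 and 3. Tpst1, a tyrosine sulfotransferase of the kind that modifies PSGL-1, was at 17.0, 16.4 and 16.0 FPKM in high dose 1, 2 and 3, 30.3, 32.6 and 28.8 FPKM in model 1, 2 and 3, and 19.9, 28.2 and 26.2 FPKM in control 1, 2 and 3. For both genes the 3 groups did not overlap, with high dose lowest and model highest; 22.6% of all genes had no overlap between high dose and model libraries and 16.0% had none between model and control libraries, the property by which both genes were named. Their log2 differences of high dose against model were -1.17 ± 0.22 (SE) for C1galt1 and -0.85 ± 0.19 (SE) for Tpst1, with limma adjusted p-values of 0.159 and 0.185. Both enzymes are made by many cell types.

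Junction partners had a median log2 difference of 0.01 for model against control and -0.67 for high dose against model, where 4 of 7 tested had all high dose libraries below all model libraries, beside 10.9% of all genes. Of these, Cldn5, the claudin of endothelial tight junctions, was low throughout, at 0.238 to 0.779 FPKM in high dose, 1.17 to 1.39 FPKM in model and 0.264 to 0.772 FPKM in control libraries. Cdh5, the cadherin of endothelial adherens junctions, was chosen after its values were seen and was at 86.2, 32.4 and 56.4 FPKM in high dose 1, 2 and 3, 91.6, 129.4 and 137.2 FPKM in model 1, 2 and 3, and 66.0, 93.6 and 112.4 FPKM in control 1, 2 and 3. Pard3, a polarity protein bound by JAM-A, was at 1.90 to 3.14 FPKM in high dose, 1.66 to 1.90 FPKM in model and 2.80 to 3.38 FPKM in control libraries. Cdh5 and Cldn5 are also endothelial markers, and 14 of the 16 endothelial markers had a negative log2 difference of high dose against model, with a median of -0.51.

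Medians for model against control were 0.42 for genes of integrin activation, 0.37 for linkers to actin, 0.31 for proteases that shed adhesion molecules and -0.07 for other immunoglobulin-type molecules. For high dose against model they were -0.53, -0.30, 0.02 and -0.03. Rdx, radixin of the linker list, was at 19.1 to 29.0 FPKM in high dose, 25.4 to 29.9 FPKM in model and 31.3 to 39.8 FPKM in control libraries. Cd99l2, a transmembrane molecule of leukocyte passage placed in the immunoglobulin-type list, was at 15.9 to 30.1 FPKM in high dose, 16.4 to 18.0 FPKM in model and 18.4 to 28.5 FPKM in control libraries. In both genes all model libraries were below all control libraries, as in 9.06% of all genes.

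**Figure D4:**
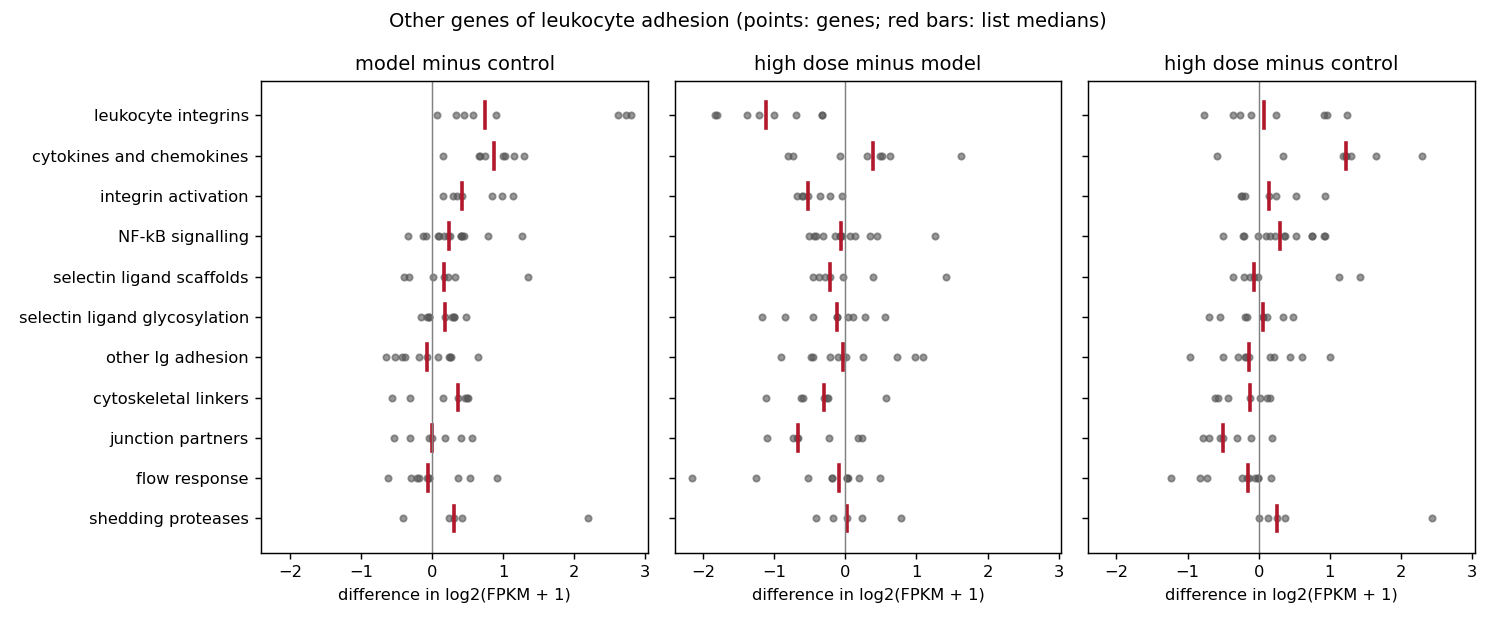
Differences in log2(FPKM + 1) of the 93 tested genes in 11 lists of leukocyte adhesion, for model minus control, high dose minus model and high dose minus control; points are genes and red bars are list medians. Leukocyte integrins lie to the right for model minus control (median 0.74) and to the left for high dose minus model (median -1.11), and none of the genes passed the adjusted threshold.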

How the data were processed

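RNA of mouse aortic arch was sequenced in 9 libraries, 3 per group, and the authors deposited 1 FPKM value per gene and library. The submitters' processing notes name the builds GRCm38.p5 and mm10; for the aligner and counter, the sources used here name no tool. Groups follow the sample labels. From the deposited FPKM values, all genes reaching 1 FPKM in at least 3 libraries entered 1 fit of log2(FPKM + 1) over all 9 libraries with limma 3.58.1 (R 4.3.3), two-sided, with trended empirical Bayes and Benjamini-Hochberg adjustment over 12895 genes at 0.05. Exact permutation tests over libraries were run with Python 3.11.15, numpy 2.4.6 and pandas 2.3.3, and plots were drawn with matplotlib 3.10.9. The fit was tested on simulated data, and no result of that test is given here. Because FPKM values were whole multiples of a step, fragments were recovered for 100.0% of tested genes and used for limma voom, an alternative added after seeing the data; a fold taken on log2(FPKM + 1) shrinks for low genes, and the precision of low values is set by their fragments. Other alternatives changed the pseudocount, filter, scaling, weights, libraries, a replicate block and marker adjustments. The 8 genes and all lists were chosen with earlier results of these data known. Named besides the 8 genes are, per list, up to 3 genes of smallest p among those whose model and control libraries did not overlap, and the 3 genes most alike to each member, of which 1 is not reported here.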

Additional observations from a re-analysis of the deposited data

How the results depend on the processing

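The adhesion genes kept their direction and side of the threshold in 599 combinations of gene, comparison and alternative and turned their direction in 41. They passed the threshold in 1, Selp in model against control with array weights (0.0459). Some of the 599 could not have turned. Sele, which was not tested, is counted only with no filter, the fit that also gave its own value. Leaving out a library of a group outside the comparison leaves the difference as it was. The number of genes called was 0 in every comparison and moved as follows. For model against control it was 684 with array weights and 637 with the leukocyte list mean subtracted. For high dose against model it was 1 with no filter, 6 with array weights, 1 with the compared groups alone, 237 with the leukocyte mean subtracted, 591 with only libraries of Myh6 under 100 FPKM, and 0 to 46 with a library left out, 46 without high dose 3. For high dose against control it was 1 with no filter, 2 with the leukocyte mean subtracted and 229 with only libraries of low Myh6. For both ApoE-/- groups together against control it was 1 with no filter, 1 with array weights, 177 with the leukocyte mean subtracted, and 0 to 1 with a library left out, 1 without control 3. Why these settings call more genes was not tested. The setting of low Myh6 kept model 1, 2 and 3 but only high dose 1 and control 3. With 1 high dose and 1 control library, the only spread within a group at that setting is that of the model libraries. Its counts therefore do not show how far high dose or control libraries vary. Subtracting the leukocyte mean shifts the median of all genes by -1.55, 0.533, -1.01 and -1.29 in these comparisons. That setting turned the model against control differences of Vcam1 (-0.42), Icam1 (-1.25), Icam2 (-1.11), Pecam1 (-1.42) and F11r (-1.30), the high dose against model difference of Pecam1 (0.26), the high dose against control differences of Vcam1 (-0.51), Icam1 (-0.26) and Selplg (-0.37), and the pooled differences of Vcam1 (-0.46), Icam1 (-0.75), Icam2 (-1.26) and Selplg (-0.0098). Subtracting the endothelial mean turned Pecam1 (0.28, 0.36 and 0.23 for high dose against model, high dose against control and pooled), Icam2 in high dose against control (0.11) and pooled F11r (0.10). Array weights turned Vcam1 (-0.058) and Icam1 (-0.15) in model against control, Vcam1 in high dose against model (0.49) and pooled F11r (0.12). The cardiac covariate turned Icam1 in high dose against model (-0.28) and pooled Pecam1 (0.070), libraries of low Myh6 alone turned F11r in model against control (-0.068) and Icam1 in high dose against model (-0.15), and quantile normalization turned pooled Icam2 (-0.022). With a library left out the ranges that cross 0 were, for Icam1, -0.28 to 0.71 in model against control and -0.052 to 0.94 pooled; for Vcam1, -1.49 to 0.28 in high dose against model and -0.37 to 0.94 in high dose against control; and, pooled, -0.20 to 0.26 for Icam2, -0.14 to 0.056 for Pecam1 and -0.29 to 0.0096 for F11r. With a replicate block 0 genes were called and Selp in model against control stayed at 2.61 (adjusted p = 0.883), but libraries of the same number did not deviate together (r from -0.522 to 0.306), so the numbers are not treated as a pairing. With limma voom Selp in model against control was 3.12 (adjusted p = 0.901). Depth limits Sele most, at 4 fragments in control 3.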
